A study of Mus musculus with 6 samples.

Results

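Apoptosis and p53 target genes were examined in mouse gliomas that had been induced with or without a HoxA5 virus. The members were all genes whose symbol in the platform annotation matched a fixed list of caspases, BCL2 family proteins, inhibitors of apoptosis, death receptor proteins and p53 targets. This rule took 54 of the 19057 genes with a single symbol, represented by 127 probes. Bax, which the rule also names, was not analysed here. Of the members, 45 had a probe above background (detection p-value below 0.05) on 2 or more of the 6 arrays and were tested, among 12242 genes tested in all. The other 9 were Bcl2l10, Bcl2l14, Bcl2l15, Bik, Birc3, Birc7, Casp14, Casp8ap2 and Perp, and of these only Bik was detected at all, on 1 array.

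The tumours were made with the RCAS/tva system, where cells are infected by an avian retrovirus if they bear its receptor, tva. Ntva mice express that receptor from the promoter of nestin, a gene of neural stem and progenitor cells. All mice were adult Ntva mice on a mixed FVB/N, C57BL6, BALB/C and 129 background and were either Ink4a/Arf+/- or Ink4a/Arf-/-, and which genotype each tumour had was not stated in the labels. Chicken DF1 fibroblasts producing PDGFb virus were injected into the right frontal cortex, mixed with DF1 cells producing HoxA5 virus (HoxA5 tumours, n = 2) or virus for the fluorescent protein mCherry (mCherry tumours, the controls, n = 4). Both groups therefore share the PDGFb driver and the injected chicken cells. The Ink4a/Arf locus was reduced or absent in all mice, but which of these could differ between the groups. Whether that genotype bears on the differences below was not tested. RNA came from tumour tissue of mice that were watched until signs of illness. The question addressed was whether raised HOXA5 expression bears on the aggressiveness of such tumours.

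Apoptosis is run by caspases, proteases that are activated either at mitochondria or at death receptors of the cell surface. In the mitochondrial route BH3-only proteins act on BAX and BAK, which open the outer membrane unless anti-apoptotic BCL2 proteins hold them back, and released cytochrome c then assembles APAF1 and caspase 9. The transcription factor p53 raises transcription of several BH3-only genes and of many stress genes when DNA is damaged, and the Arf product of the Ink4a/Arf locus protects p53 from MDM2. Loss of that locus is a common lesion of glioblastoma.

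Values are log2 intensities after background correction and quantile normalisation, and a difference is the HoxA5 mean minus the mCherry mean on that scale. Levels of different probes are not comparable with each other. Median intensities were 136.1 to 166.8 and 19950 to 21904 probes were detected per array. The Hoxa5 probe was detected on 0 of 6 arrays and differed by -0.18 between groups (exact two-sided permutation p = 0.667, where 0.0667 is the smallest p possible), so it does not check the delivered gene. All 7 measured genes of an oligodendrocyte progenitor list, which marks such tumours, were detected. Across genes the mCherry 4 array correlated with the HoxA5 arrays at 0.963 and 0.962, while the other mCherry arrays did so at 0.842 to 0.916. The labels do not state that every tumour was from its own mouse, and the p-values then reflect only the spread between these 6 samples, which may in part be technical.

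HoxA5 tumours had higher signals of most members, by small amounts. Of the 45 members tested, 36 had a positive difference and 9 a negative difference, which is 80% positive against 54.8% of all genes. The median difference over the members tested was 0.48, against 0.072 over all genes, and it ran from 0.25 to 0.55 over 17 alternative settings, lowest when no background was corrected (0.25) and in the authors' values (0.26). Members ranged from -0.90 for Bcl2l2 to 2.29 for Birc5. This describes the list and does not test it, since genes of a pathway are not independent replicates.

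**Figure D1:**
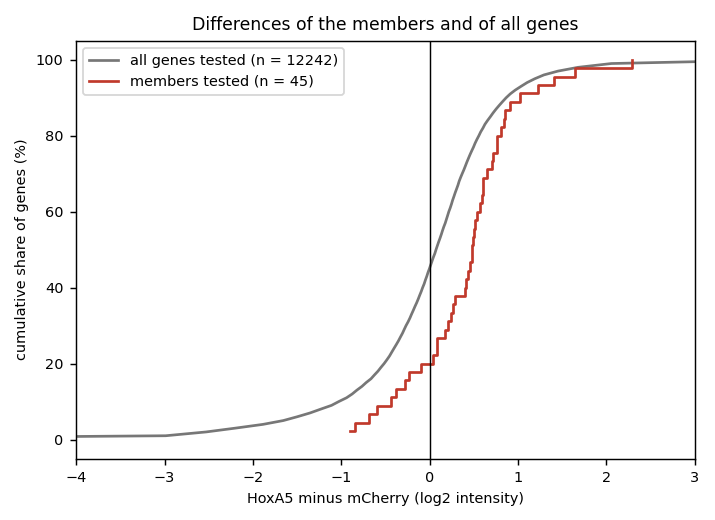
Cumulative share of genes in percent (vertical axis) below each HoxA5 minus mCherry difference in log2 intensity (horizontal axis), for the 45 members tested (red steps) and all 12242 genes tested (grey line). The members' curve lies to the right of the grey line around its middle, with medians of 0.48 and 0.072, and 5 members differed by more than 1 in either direction.

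Phlda3 alone passed the test. The threshold for a call was an adjusted p of 0.05 (Benjamini-Hochberg, over all genes tested with limma), which 1.21% of all genes met as higher in HoxA5 tumours and 4.64% as lower, 5.85% together. Of the members, 1 of 45 (2.22%) was called higher and 0 were called lower in limma, a share near the background. At an unadjusted p under 0.05, 8 members were higher (17.8%, against 11.5% of all genes) and 2 were lower (4.44%, against 13.1%). Both HoxA5 arrays lay above every mCherry array for 14 members (31.1%, against 18.3% of all genes) and below every mCherry array for 3 (6.67%, against 17.2%). Of these 3, Xiap was detected only on mCherry arrays. Of the 14, Bcl2l12 was detected on both HoxA5 arrays and on 1 mCherry array, so it met the filter through the HoxA5 arrays.

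**Figure D2:**
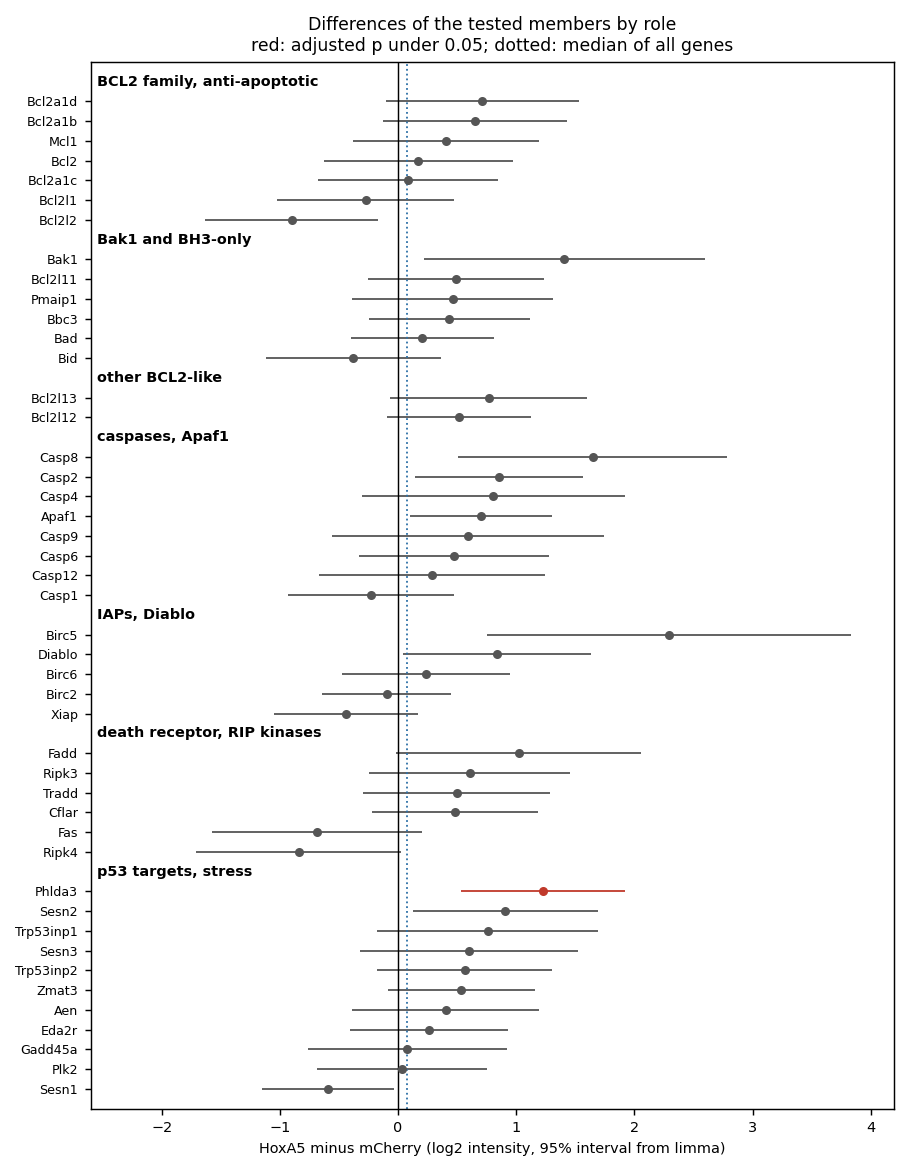
HoxA5 minus mCherry difference in log2 intensity (points) with the 95% interval from limma (bars) for each of the 45 members tested, grouped by role. The interval of Phlda3 (red, adjusted p under 0.05) runs from 0.53 to 1.92, and the dotted line marks the median of all genes at 0.072.

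Among p53 targets, Phlda3 rose in HoxA5 tumours. Its product is a small protein with a pleckstrin homology domain that competes with the kinase AKT for membrane lipids. The signal was 11.44 and 11.33 in HoxA5 tumours 1 and 2, against 10.12, 10.46, 9.53 and 10.54 in mCherry tumours 1 to 4. The groups did not overlap, and the lowest HoxA5 value lay clearly above the highest mCherry value. The group values were 11.39 ± 0.0793 (SD, n = 2) and 10.16 ± 0.458 (SD, n = 4), a 2.34-fold rise (difference 1.23, SE 0.309, limma adjusted p = 0.0498). A second Phlda3 probe, also detected on all 6 arrays, differed by 1.14. The call stood close to the threshold. It was kept in 5 of 17 alternative settings, with differences of 1.02 to 1.35 over the 17. Of the 5, 1 is the looser threshold of 0.10, which any gene called at 0.05 must pass. With both HoxA5 arrays in the fit, limma adjusted p-values ran from 0.0136 to 0.122. The call was lost when any mCherry array other than mCherry 4 was left out. Without HoxA5 1 the difference was 1.17, and without HoxA5 2 it was 1.28.

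The region upstream of Phlda3 is shown because this is the member that passed. Promoter sequences are from RefSeq on GRCm38.p6, taken as the 250 bases before the annotated start, and 46 of the 54 members had an entry, with 59 promoters between them. Each was searched for the 10-base half-site of the p53 consensus, which reads the same on both strands, and for the GC box GGGCGG bound by SP family factors, on both strands. A full p53 response element is a pair of such half-sites. Capitals mark these matches.
Phlda3, chr1:135765835-135766084, plus strand: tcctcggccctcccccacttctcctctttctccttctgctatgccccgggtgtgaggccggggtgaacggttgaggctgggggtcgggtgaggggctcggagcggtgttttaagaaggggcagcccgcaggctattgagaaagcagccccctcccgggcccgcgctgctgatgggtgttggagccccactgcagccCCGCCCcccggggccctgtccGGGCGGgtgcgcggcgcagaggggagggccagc
This window of Phlda3 holds 2 GC boxes and no p53 half-site. Of the members' promoters, 4 (6.78%) held a p53 half-site, 1 in each, those of Aen, Birc5, Gadd45a and Sesn1, against 7.13% of all 32851 promoters. A GC box was found in 64.4% of the members' promoters and in 32.7% of all promoters. A match describes letters only and is not a binding site, and bases outside the window were not searched.

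The remaining p53 targets and stress genes lay between -0.60 and 0.91 without passing, and 10 of the 11 tested in this group had a positive difference. The sestrins, which restrain the growth kinase complex mTORC1 under stress, had differences of opposite sign. Sesn2 was at 7.40 and 7.25 in HoxA5 tumours 1 and 2 and at 6.28, 6.90, 6.33 and 6.17 on mCherry 1 to 4 (difference 0.91, SE 0.348, limma adjusted p = 0.150). Sesn1 was at 10.42 and 10.59 in HoxA5 tumours 1 and 2 and at 11.06, 11.19, 11.40 and 10.74 on mCherry 1 to 4 (difference -0.60, SE 0.248, limma adjusted p = 0.179). Neither gene overlapped between groups, and all 3 detected Sesn1 probes had a negative difference. The Sesn2 difference was 0.45 in the authors' values and 0.44 when no background was corrected.

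For other p53 targets the HoxA5 arrays did not separate from the controls. Zmat3, an RNA-binding protein, differed by 0.54 and Trp53inp1, a stress-induced regulator of autophagy, by 0.76, with HoxA5 2 (10.23) well above HoxA5 1 (9.04) for the latter. Sesn3 and the nuclease gene Aen were likewise higher on HoxA5 2 (7.17 and 6.29) than on HoxA5 1 (6.21 and 5.39). Gadd45a, a classic DNA damage response gene, differed by 0.080 with a 95% interval of -0.76 to 0.92. Plk2, a kinase induced by p53, differed by 0.037 with an interval of -0.68 to 0.76. These intervals include differences as large as most of those seen for other members, so the arrays do not show that these genes were alike in the groups.

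Genes of the inhibitor of apoptosis family and their antagonist held the largest difference among the members tested. This was Birc5, which encodes survivin, a family member that also works in the chromosomal passenger complex of dividing cells. Birc5 was at 10.94 and 10.90 in HoxA5 tumours 1 and 2 and at 8.69, 8.93, 6.86 and 10.04 on mCherry 1 to 4. All HoxA5 values lay above all mCherry values, with mCherry 4 nearest to them and mCherry 3 far below. The difference was 2.29 (SE 0.686, 4.90-fold), from 8.63 ± 1.32 (SD, n = 4) to 10.92 ± 0.0314 (SD, n = 2), and it did not pass (limma adjusted p = 0.0802). The other 2 probes of the gene differed by 2.16 and 2.33. The Birc5 difference passed in 5 of 17 alternative settings and not in the other 12. It passed without mCherry 3 (1.70, limma adjusted p = 0.0425) and without mCherry 4 (2.76, limma adjusted p = 0.00788). It also passed with array weights (2.39, limma adjusted p = 0.0237). The remaining passes were at the looser threshold of 0.10 and with the replicate number as a block (2.11, limma adjusted p = 0.0133). That block leaves mCherry 3 and mCherry 4, the lowest and the nearest control, out of the difference.

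The Birc5 upstream region is printed because the gene had the largest difference and is among the 4 members whose window holds a p53 half-site, here a single one with its first base at position -228 from the start.
Birc5, chr11:117848987-117849236, plus strand: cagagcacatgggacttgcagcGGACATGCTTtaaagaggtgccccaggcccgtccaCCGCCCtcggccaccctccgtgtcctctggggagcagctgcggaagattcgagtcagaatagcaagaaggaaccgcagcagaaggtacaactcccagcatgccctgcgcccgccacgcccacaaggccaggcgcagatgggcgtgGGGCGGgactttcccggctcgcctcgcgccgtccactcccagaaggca
The capitals mark the p53 half-site, GGACATGCTT, and 2 GC boxes.

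Genes of cell division were highest on the same arrays as Birc5. All 12 measured genes of a fixed division list had a positive difference, 7 of them called, with a median of 2.27. Their mean log2 intensity was 8.89 and 9.14 in the HoxA5 tumours and 6.81, 6.93, 5.73 and 7.92 on mCherry 1 to 4, in the same order of mCherry arrays as Birc5. Summed as linear intensities, the list ran from 11151 to 13314 in HoxA5 tumours and from 793 to 5981 in mCherry tumours. The part of dividing cells in the Birc5 difference was not tested. In bulk tissue a change in the number of cells of a type and a change in RNA per cell cannot be told apart.

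Diablo, whose product leaves mitochondria and binds inhibitors of apoptosis, was at 11.82 and 11.74 in HoxA5 tumours 1 and 2 and at 10.74, 11.16, 10.23 and 11.64 on mCherry 1 to 4. The groups were separated by a narrow gap to mCherry 4, and the difference was 0.84 (SE 0.355, limma adjusted p = 0.185). Xiap, a direct inhibitor of caspases, was at background on both HoxA5 arrays. It met the detection filter through 3 mCherry arrays alone, with 1 of its 4 probes, so its direction follows in part from the filter. The bound on its fold was 1.01, and the difference did not pass (interval -1.05 to 0.17, limma adjusted p = 0.346). Birc2, a ubiquitin ligase of the TNF receptor complex, differed by -0.097 and Birc6 by 0.24, and the 4 detected Birc2 probes disagreed in direction.

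Among caspases, 7 of the 8 tested members including Apaf1 had a positive difference and none passed. Casp8, the initiator caspase of death receptors, had the largest difference of this group. It was at 8.49 and 9.18 in HoxA5 tumours 1 and 2 and at 7.05, 6.75, 6.61 and 8.34 on mCherry 1 to 4, so mCherry 4 lay close under HoxA5 1 while the other controls were far lower. The difference was 1.65 (SE 0.508, 3.13-fold, limma adjusted p = 0.0861), and a second probe differed by 1.74. It was 1.10 in the authors' values and 1.08 when no background was corrected. The difference passed without mCherry 4 (2.03, adjusted p = 0.00547) and with array weights (1.79, adjusted p = 0.0237).

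Casp2, an initiator caspase activated by the scaffold protein PIDD1, was at 10.91 and 10.98 in HoxA5 tumours 1 and 2 and at 9.78, 10.26, 9.65 and 10.68 on mCherry 1 to 4. The HoxA5 values were almost equal and lay above all controls (difference 0.86, SE 0.316, limma adjusted p = 0.137). Apaf1, the core of the caspase 9 platform, was at 9.70 and 9.83 against 8.89, 8.90, 9.18 and 9.28 on mCherry 1 to 4 (difference 0.70, SE 0.267, limma adjusted p = 0.146). Apaf1 was less variable between controls than the caspases above, and its 3 detected probes differed by 0.70 to 0.85. The partner of Apaf1, Casp9, was at 7.35 on HoxA5 1 and 5.81 on HoxA5 2, which lay below 3 of the 4 mCherry arrays, and its 3 detected probes disagreed in direction. Of the inflammatory caspases, Casp4 differed by 0.81, Casp12 by 0.28 and Casp1 by -0.23, and of effector caspases Casp6 by 0.47. The 3 detected Casp12 probes disagreed in direction, and without mCherry 4 Casp12 differed by -0.24.

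Death receptor and RIP kinase genes were mixed, with 4 positive and 2 negative differences and none past the threshold. Fadd, the adaptor that brings caspase 8 to death receptors, was at 9.46 and 9.13 in HoxA5 tumours 1 and 2 and at 8.38, 7.71, 7.72 and 9.30 on mCherry 1 to 4. The mCherry 4 value lay between the HoxA5 values, and the difference was 1.02 (SE 0.461, limma adjusted p = 0.208). Without mCherry 4 it was 1.36 and passed (limma adjusted p = 0.0235), the only 1 of 17 alternative settings in which it did. Fas, the receptor itself, had a negative difference, at 5.96 and 6.67 in the HoxA5 tumours and 7.02, 7.47, 7.07 and 6.45 on mCherry 1 to 4 (difference -0.69, SE 0.396, limma adjusted p = 0.314). Here too mCherry 4 fell within the HoxA5 range.

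Cflar, the catalytically inactive relative of caspase 8 that blocks its activation, differed by 0.48, with HoxA5 arrays at 8.86 and 8.93 above mCherry arrays at 7.97 to 8.66. Ripk3, the kinase of necroptosis, differed by 0.61 and Tradd, an adaptor of the TNF receptor, by 0.50. Ripk4, a kinase known for epidermal differentiation, was not above background on either HoxA5 array and on 1 mCherry array, mCherry 4 being the lowest control at 4.72. It met the detection filter through the mCherry arrays alone, so its direction follows in part from the filter. The bound on its fold was 1.30, and the difference did not pass (interval -1.71 to 0.022, limma adjusted p = 0.213).

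In the BCL2 family, the anti-apoptotic genes were split. Bcl2l2, which encodes BCL-w, an anti-apoptotic protein abundant in neurons, was at 9.82 and 10.06 in HoxA5 tumours 1 and 2 and at 11.22, 10.68, 11.26 and 10.21 on mCherry 1 to 4. All HoxA5 values lay below all controls, and mCherry 4 was again the nearest (difference -0.90, SE 0.326, limma adjusted p = 0.131). A further 2 of its 4 detected probes differed by -0.95 and -0.90 and the last by 0.59, so that the mean of its probes differed by -0.54. Without mCherry 4 the difference was -1.11 and passed (limma adjusted p = 0.0192), the only 1 of 17 alternative settings in which it did.

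Neuronal genes were lower in HoxA5 tumours too. All 9 measured genes of the list fell, with a median of -3.29, and their mean was 9.71 and 8.68 on the HoxA5 arrays against 12.41, 12.59, 12.91 and 11.16 on mCherry 1 to 4. Their summed linear intensity ran from 5250 to 10667 in HoxA5 tumours and from 28875 to 89383 in mCherry tumours, and Snap25 and Nefl had no probe that met the detection filter. The part of neuronal RNA in the Bcl2l2 difference was not tested.

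Bcl2a1d and Bcl2a1b, copies of an anti-apoptotic gene of blood cells, differed by 0.71 and 0.65 (limma adjusted p = 0.258 and 0.274), with HoxA5 arrays above all controls for both. Their sequences are nearly identical, so these probes may read the same transcripts and count as 1 observation, and the second Bcl2a1d probe differed by -0.035. Microglia and macrophage markers did not pass, with 0 of 10 genes called in limma, 0 at an unadjusted p under 0.05 and a median of 0.18, and their summed linear intensity was 11352 to 12359 in HoxA5 and 8629 to 11829 in mCherry tumours. Of neutrophil and monocyte markers, all 3 measured genes had a positive difference with a median of 1.22, 0 called in limma and 3 at an unadjusted p under 0.05, and their summed linear intensity was 330 to 412 in HoxA5 and 118 to 261 in mCherry tumours. Whether either kind of cell bears on the Bcl2a1 values was not tested. Mcl1, a short-lived anti-apoptotic protein, differed by 0.41 (interval -0.38 to 1.20), with mCherry 2 and 4 (12.28 and 12.30) between the HoxA5 arrays (12.37 and 12.01). Bcl2l1, which encodes BCL-XL, differed by -0.27 (interval -1.02 to 0.48). Bcl2 itself differed by 0.17 (interval -0.63 to 0.97), and its 4 detected probes disagreed in direction.

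Of the pro-apoptotic BCL2 genes 5 of 6 had a positive difference. Bak1, which forms the pore of the outer mitochondrial membrane, was at 7.48 and 6.72 in HoxA5 tumours 1 and 2 and at 5.01, 6.32, 4.90 and 6.54 on mCherry 1 to 4. The groups were separated, although mCherry 2 and 4 lay close to HoxA5 2, and Bak1 was detected on 2 of the 4 mCherry arrays. The difference was 1.41 (SE 0.529, 2.65-fold, limma adjusted p = 0.142), and was 0.58 in the authors' values and 0.56 when no background was corrected. It passed in 1 of 17 alternative settings, without mCherry 4 (1.69, limma adjusted p = 0.0360). Bcl2l11, the BH3-only gene BIM, differed by 0.49, and Bbc3, the p53 target PUMA, by 0.43, with HoxA5 arrays above all controls for both. All 3 detected Bbc3 probes had a positive difference, while those of Bcl2l11 disagreed. Pmaip1, the p53 target NOXA, differed by 0.46, Bad by 0.20 and Bid, which caspase 8 cleaves, by -0.38, all 3 with overlapping groups. Of the members named only for their likeness to BCL2, Bcl2l13, a mitophagy receptor, differed by 0.77 and Bcl2l12 by 0.51. Bcl2l12 was detected on both HoxA5 arrays and on 1 mCherry array. It met the detection filter through the HoxA5 arrays, so its direction follows in part from the filter. The Bcl2l12 difference was 0.15 in the authors' values and 0.14 when no background was corrected.

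**Figure D3:**
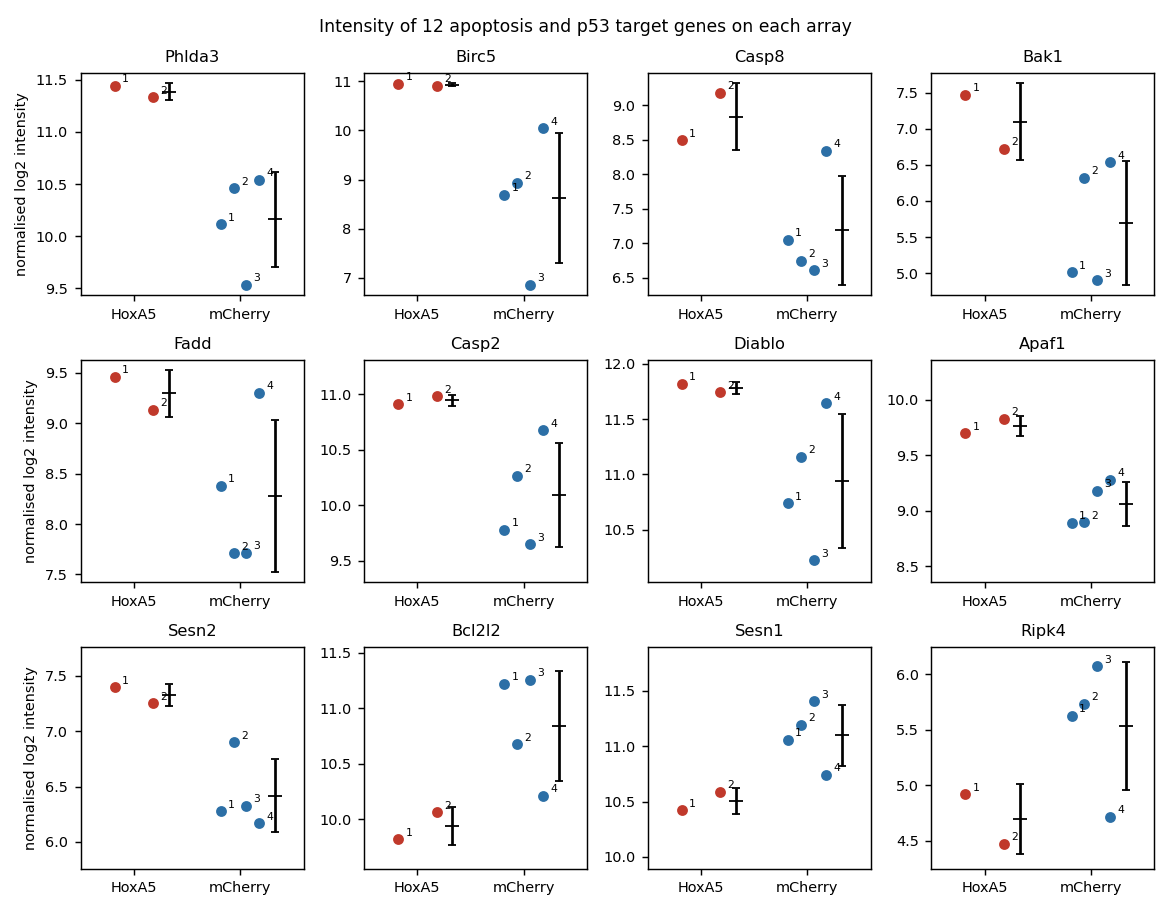
Normalised log2 intensity (vertical axis, each panel with its own range) of 12 members on each array, with replicate numbers beside the points and the group mean ± SD in black (HoxA5 n = 2, mCherry n = 4). In 10 of the 12 panels the HoxA5 points lie on 1 side of all mCherry points, and in those of Fadd and Ripk4 the mCherry 4 point falls among them. The 12 are the members of smallest unadjusted p in limma, so this separation was selected. Of all 45 members tested, 14 lay above every control (31.1%, against 18.3% of all genes) and 3 below (6.67%, against 17.2%).

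Other genes of these pathways were counted in a pair of further lists. Of 12 tested genes of a second p53 list 1 was called higher and 0 lower in limma, and 8 (66.7%, against 54.8% of all genes) had a positive difference, with a median of 0.32. Of 21 further apoptosis genes 0 were called in limma. At an unadjusted p under 0.05 in limma, 6 were higher (28.6%, against 11.5% of all genes) and 1 was lower (4.76%, against 13.1%). In all, 11 of the 21 (52.4%) had a positive difference with a median of 0.10, close to the 54.8% and 0.072 over all genes. The called gene was Pidd1, a p53 target whose product activates caspase 2. Pidd1 was at 6.67 and 6.78 in HoxA5 tumours 1 and 2 and at 5.34, 4.81, 4.72 and 5.93 on mCherry 1 to 4, where it was detected on 2 of 4 arrays. It rose by 1.52 (SE 0.383, 2.88-fold, limma adjusted p = 0.0495), a call kept in 7 of 17 alternative settings. Of the 7, 1 is the looser threshold of 0.10, which any gene called at 0.05 must pass. The call was lost when any mCherry array other than mCherry 4 was left out. Without HoxA5 1 the Pidd1 difference was 1.58, and without HoxA5 2 it was 1.47. The rise was 0.55 in the authors' values and 0.53 when no background was corrected, and it passed in both. Cdkn1a, the cell cycle inhibitor p21 and a leading p53 target, differed by 0.75 (SE 0.423, limma adjusted p = 0.306), with arrays at 11.07 and 11.77 against 10.45, 11.66, 9.99 and 10.59. Mdm2, both a p53 target and its inhibitor, differed by 0.16 (interval -0.42 to 0.74). Both HoxA5 arrays lay above every control for 4 of the 12 genes of the second p53 list (33.3%, against 18.3% of all genes). They lay below every control for 2 (16.7%, against 17.2%). Those above were Pidd1, Mdm4 (difference 0.55, limma adjusted p = 0.303), Dram1 (1.07, limma adjusted p = 0.105) and Gtse1 (2.59, limma adjusted p = 0.0534). Below lay Rrm2b, a ribonucleotide reductase subunit used in DNA repair (difference -0.88, limma adjusted p = 0.155). The other was Ddb2, a damage sensor of nucleotide excision repair (difference -0.93, limma adjusted p = 0.206). These p53 targets were chosen after their values were seen. Trp53 itself was not analysed here.

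Across the members the arrays fell in a shared order. The median deviation of the 45 members from their own means was 0.28 and 0.34 for HoxA5 1 and 2, and -0.28, 0.020, -0.44 and 0.13 on mCherry 1 to 4. The mCherry 4 array was the control nearest to the HoxA5 mean for 25 members (55.6%), much as for all genes (53.1%). For 6 members, the HoxA5 arrays lay above mCherry 1 to 3 and not above mCherry 4. That order was not counted over all genes, so it cannot be called particular to the members. Without mCherry 4, 7 of 45 members were called higher (15.6%, against 8.58% of all genes) and 2 lower (4.44%, against 11.3%). The members called higher then were Bak1, Birc5, Casp2, Casp8, Diablo, Fadd and Phlda3, and those called lower were Bcl2l2 and Ripk4. Ripk4 was detected only on mCherry arrays. No label sets mCherry 4 apart from the other controls.

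**Figure D4:**
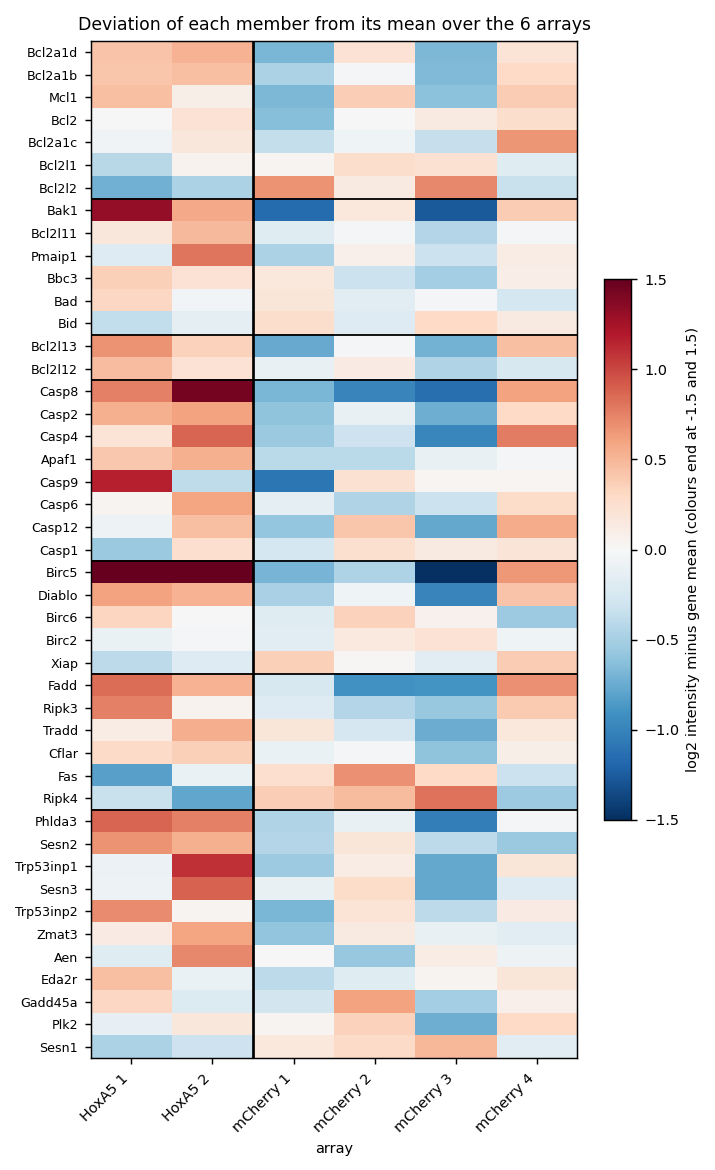
Deviation of each of the 45 members tested (rows, grouped by role with black lines) from its mean over the 6 arrays (columns), in log2 intensity, with colours ending at -1.5 and 1.5. The mCherry 1 and mCherry 3 columns are mostly below the mean (medians -0.28 and -0.44), and the HoxA5 columns mostly above it (0.28 and 0.34).

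Marker lists of several cell types also differed between the groups. Fibroblast genes were higher in HoxA5 tumours, with 4 of 7 called and a median of 2.53, and a summed linear intensity of 5441 to 10572 against 1268 to 2508. Myelin genes were lower, with 6 of 8 called and a median of -2.43, and sums of 5126 to 11363 against 18424 to 36411. Of 5 genes of a choroid plexus and ependymal list 4 had a negative difference, 3 of them called, with a median of -2.72. The exception was Foxj1, which differed by 0.24 with overlapping groups. Sums were 201 to 303 against 18217 to 32593, and Ttr, the brightest of these 5 genes in mCherry tumours (mean 14.47), weighs most in the mCherry sums. Folr1 and Kl, which mark choroid plexus, were not detected on either HoxA5 array. Of 8 astrocyte genes 2 were called lower, with a median of -0.74 and sums of 33739 to 34089 against 41000.2 to 66483. Oligodendrocyte progenitor genes had 7 of 7 positive differences, 0 called in limma and 2 at an unadjusted p under 0.05, with a median of 0.81 and sums of 49789 to 58558 against 22999.5 to 55939. The part of these cell types in the members' differences was not tested.

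**Figure D5:**
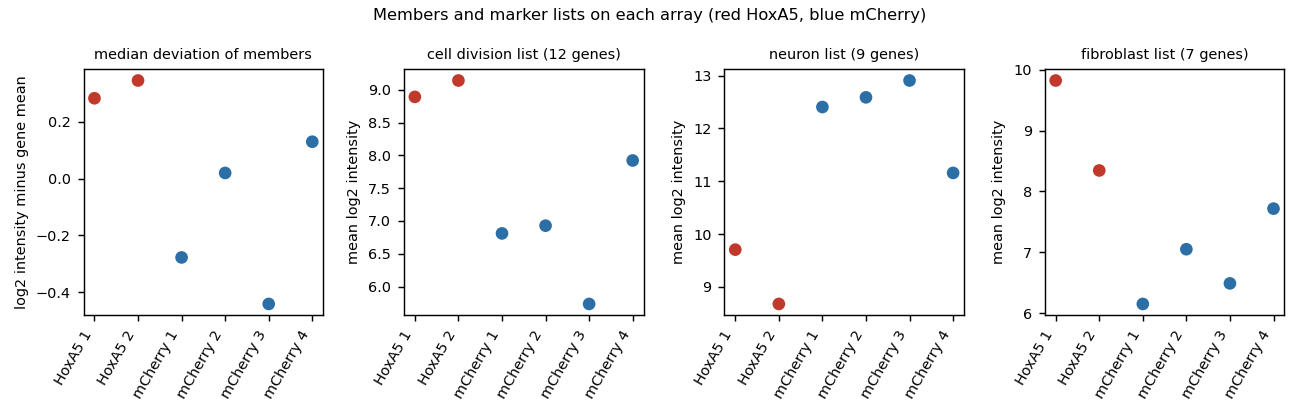
Median deviation of the 45 members from their gene means and mean log2 intensity of the cell division (12 genes), neuron (9 genes) and fibroblast (7 genes) lists on each array, HoxA5 in red and mCherry in blue, with vertical axes that do not start at 0. The mCherry 4 array lies nearest to the HoxA5 arrays in all 4 panels, at 0.13 for the members and 11.16 for the neuron list.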

How the data were processed

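Total RNA of 6 tumours was hybridised to Illumina mouse bead arrays. The authors deposited 1 intensity per probe and array without normalization, per the file name, and a detection p-value beside each, per the file headers. They also deposited processed log2 values, for which the submitters' processing notes name limma, while the steps are not given in the sources used here.

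Of 45281 probes, 34885 had 1 symbol in the platform annotation, 18 several and 10378 none. Intensities were processed with neqc (normal-exponential background from the detection p-values, offset 16, quantile normalization, log2) in limma 3.58.1 under R 4.3.3. The offset understates folds of dim genes. Probes detected on at least 2 arrays were kept (19479), and the brightest represented its gene. HoxA5 and mCherry tumours were compared with lmFit and eBayes with an intensity trend (4 residual and 5.52 prior degrees of freedom), and p-values were adjusted over all genes tested by the Benjamini-Hochberg method at 0.05. The fit was tested on simulated data. A bound replaces the fold where a group was not above background: the brighter mean against, per dim array, its lowest detected signal or the value of the gene there, whichever is higher. The number of arrays limits the precision.

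Named with full values were members past the threshold, the 3 of smallest p in each role group, 6 central genes, and pathway genes past the threshold with Mdm2, Cdkn1a and Trp53. Other members are given by their difference. Members, roles, marker lists and tests were chosen with earlier results of these data known. The 17 alternatives changed the background correction, scaling, values, detection filter, joining of probes, variance model, array weights, blocks, threshold or left out 1 array.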

Additional observations from a re-analysis of the deposited data

How the results depend on the processing

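The median difference over members, 0.48, was 0.25 to 0.55 in the 17 alternatives. Each shift was below 0.229, the SD of the members' median deviation between arrays of a group, pooled over the groups. The largest shift lay only just below it, as the median was 0.25 with uncorrected background and 0.26 in the authors' values. That SD is a spread between samples and does not measure the effect of the processing. Of the named genes, 25 of 26 kept their sign in every alternative run. Bcl2 changed sign with the mean of its probes (-0.025) and without mCherry replicate 1, in a range of -0.022 to 0.28 with 1 array left out. Numbers of members called higher were 0 with uncorrected background, the authors' values, no detection filter, averaged probes, no intensity trend and sex (read from Xist and Eif2s3y) as a block, settings in which 7 to 9 members were higher at an unadjusted p under 0.05 in limma, and 3 with array weights or at an adjusted p under 0.10. Leaving out 1 array gave 0 to 7 members higher and 0 to 2 lower. Over all genes, 148 were higher and 568 lower. Genes higher numbered 642 with array weights, 506 at the 0.10 threshold, 95 without a detection filter and 31 with sex as a block, and genes lower 1104, 1003, 453 and 307. Genes lower were 362 in the authors' values and 372 with uncorrected background. With 1 array left out, 0 to 1039 genes were higher and 2 to 1372 lower, and fits with a single HoxA5 array assume that it varies like the controls. The share of calls that were higher was 20.7%, against 29.9% without background correction and 32.8% with median scaling. The cause of these shifts was not tested.

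With the replicate number as a block, 236 genes were higher and 669 lower, and the 1 member called was Birc5 (2.11, adjusted p = 0.0133) in place of Phlda3 (1.10, adjusted p = 0.109). In that fit mCherry 3 and mCherry 4 share their number with no HoxA5 array, so they drop out of the difference. The fit therefore compares only HoxA5 1 and 2 with mCherry 1 and 2. The deviations of same-numbered arrays correlated at -0.36 and -0.24 across genes. The deviations of 2 HoxA5 arrays mirror each other, so the crossed pairs must give 0.36 and 0.24. Whether the numbers pair the samples therefore cannot be decided from these values.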
